A study of Mus musculus with 6 samples.

Results

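The small leucine-rich proteoglycans and a set of matrix genes known from fibroblasts were followed in 2 sorted fractions of mouse mammary cells. The set comprised 10 genes: Dcn, Bgn and Aspn (class I small leucine-rich proteoglycans), Lum, Fmod and Prelp (class II), Ogn (class III), and Fbln1, Tgfbi and Pi16. Members were the array probes whose RefSeq transcript carries one of these symbols. This gave 10 probes for 9 genes out of 55681 probes for 20887 genes, with 2 probes for Fbln1 and 1 for each of the other 8 genes. No probe was mapped to Prelp, so it was not analysed here. All 10 probes were well above background in the sample channel on all 6 arrays, 0 were saturated, and all entered the test.

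The arrays compared Lgr5-positive cells (3 arrays) with Lgr5-negative cells (3 arrays). Lgr5-positive cells were the Lin-, CD24+, CD29hi cells of the sort with GFP, and Lgr5-negative cells those without GFP. Both groups were sorted from the mammary gland of virgin mice, strain C57/B6, genotype lgr5-egfp-ires-creert2, so the Lgr5-negative cells carry the same knock-in allele, which places EGFP and an inducible Cre under the control of the Lgr5 gene. The labels used here give neither the age of the mice, nor the number of animals per array, nor the markers behind Lin. If the replicates were not separate animals, the p-values measure the spread between these arrays alone. On every array Cy5 marked the sample, and Cy3 marked a reference pooled from 11 mouse cell lines. Each value is therefore a log2 ratio of sample over reference, and it compares arrays for 1 probe, not probes with each other.

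Small leucine-rich proteoglycans are secreted proteins whose leucine-rich repeats bind collagen. Many of them carry chondroitin, dermatan or keratan sulfate chains, set the width and spacing of collagen fibrils, and hold growth factors such as TGF-beta in the matrix. In the mammary gland they are known chiefly as products of the stromal fibroblasts that surround the ducts, while the CD24+CD29hi gate is enriched in basal epithelial cells.

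Median Cy5 intensity was 137 to 169 on the Lgr5-positive arrays and 200 to 278 on the Lgr5-negative arrays, against a median background of 64 to 68 and 70 to 76. The share of probes detected above background was 50.9% to 74.4%. Lgr5, the gene used for the sort, had log2 ratios of 4.24, 5.36 and 5.01 in Lgr5-positive cells, against 2.84, 4.04 and 3.31 in Lgr5-negative cells. Its log2 fold change of 1.47 (SE 0.40) had an adjusted p of 0.429 in limma's fit on the group alone and of 0.0013 once the replicate number was a block. Log2 fold changes are Lgr5-positive minus Lgr5-negative, and p-values are two-sided and Benjamini-Hochberg adjusted over all 34528 probes tested. Arrays with the same replicate number deviated together, so both fits are given throughout. "Fell" and "rose" refer to an adjusted p under 0.05 in the fit that is named.

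Across the array the fit with the group alone called 35 probes, 0.101% of those tested, and the blocked fit 1522, or 4.41%. Of the 10 member probes, 1 passed with the group alone, that of Tgfbi, and 5 passed with the block. The blocked fit called 4 member probes lower in Lgr5-positive cells (Tgfbi, Dcn, Pi16 and Lum), where 3.18% of all probes were called lower. It called 1 higher, the brighter Fbln1 probe, where 1.23% of all were called higher. Over the whole array 72.1% of the blocked calls were lower, a share that was 97.8% with median centring of the arrays in place of loess and 85.0% from the software's log ratio. The groups did not overlap for 3 member probes that were lower (Tgfbi, Dcn and Pi16), a pattern found in 5.58% of all probes, and for 2 that were higher (Fbln1 probe 1 and Ogn), found in 3.52%. Within the 3 replicate pairs, 4 probes were lower in each pair (Tgfbi, Dcn, Pi16 and Lum) and 4 were higher in each pair (both Fbln1 probes, Bgn and Ogn). One direction in all pairs was common on these arrays, with 17.0% of all probes lower and 23.0% higher in each pair. The median log2 fold change was -0.15 over the 10 member probes and 0.03 over all probes tested. The set thus held members in both directions. In bulk RNA of this kind, fewer cells of a type and less RNA per cell cannot be told apart.

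**Figure D1:**
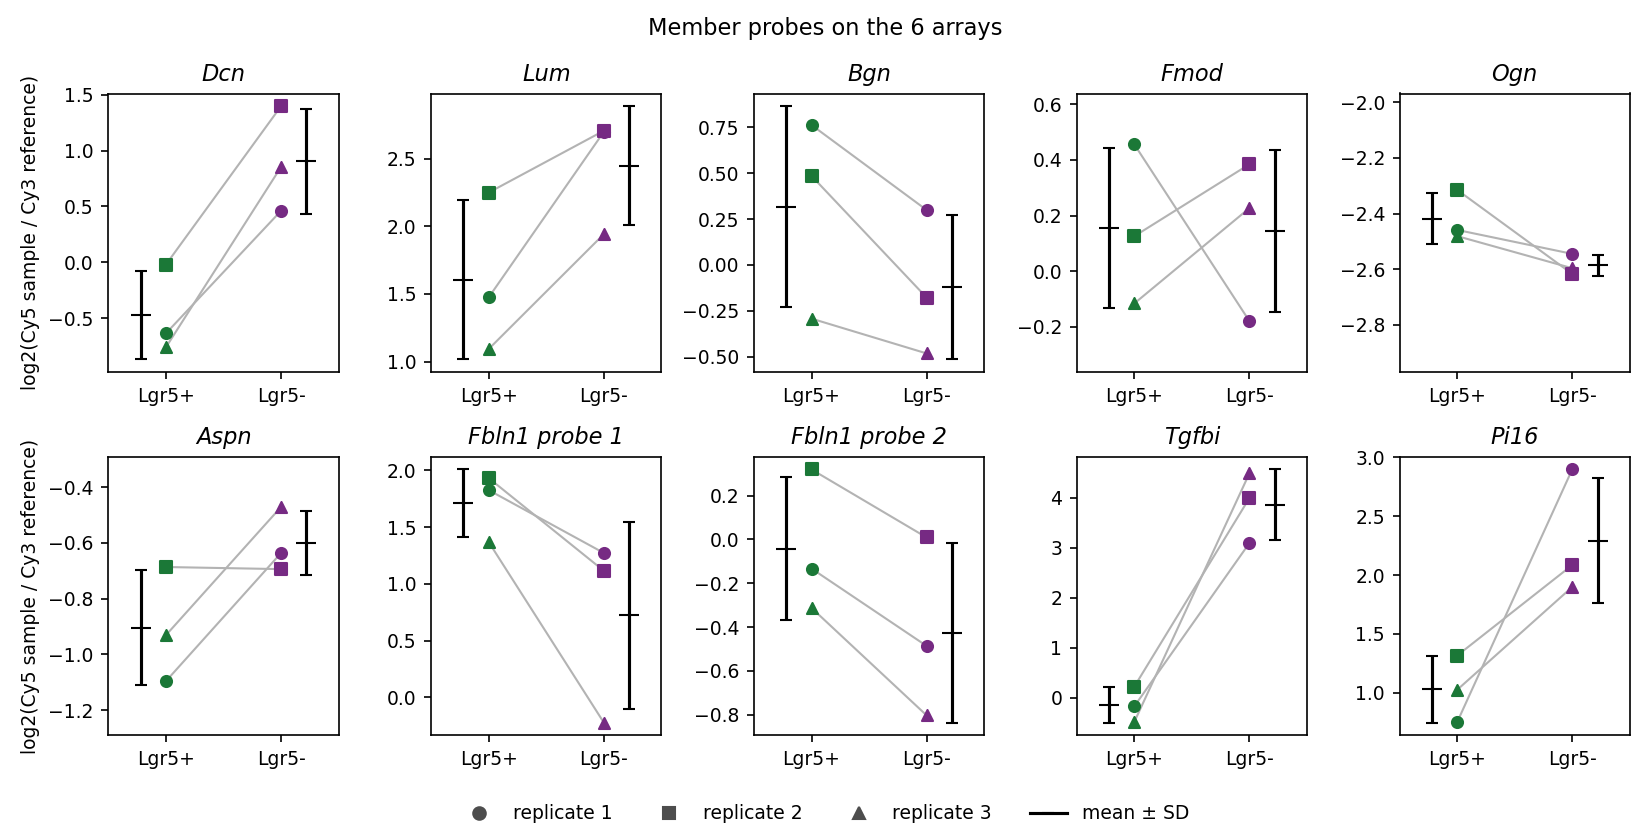
Log2 ratio of Cy5 (sample) over Cy3 (universal reference) for each member probe, 1 panel per probe with its own axis. Lgr5-positive arrays are at the left and Lgr5-negative arrays at the right of each panel, lines join arrays with the same replicate number, and bars give mean ± SD (n = 3 each); Tgfbi, Dcn and Pi16 were lower on all 3 Lgr5-positive arrays, Fbln1 probe 1 was higher, and Fmod crossed over.

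Tgfbi encodes a secreted protein with fasciclin domains that is induced by TGF-beta and binds collagens and integrins. Its log2 ratios were -0.17, 0.23 and -0.48 in Lgr5-positive cells and 3.10, 4.00 and 4.49 in Lgr5-negative cells. Every Lgr5-positive array lay below every Lgr5-negative one, with a gap far wider than the spread within either group. The means were -0.14 ± 0.35 and 3.86 ± 0.71 (SD, n = 3 each). Tgfbi fell by 4.00 on the log2 scale (SE 0.38, 95% interval -4.90 to -3.10, adjusted p = 0.0335) in the fit with the group alone, or 16.0-fold lower. With the replicate block the SE was 0.28 and the adjusted p 0.000696.

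The Tgfbi difference was also present in the sample channel before normalization. Median spot intensity in Cy5 was 313.5, 493.5 and 329 in Lgr5-positive cells and 3284, 11710 and 15484 in Lgr5-negative cells, over a local background of 60 to 73. The reference channel had 812.5, 721 and 785 on the Lgr5-positive arrays and 809, 856.5 and 818 on the Lgr5-negative arrays, which were close to each other. Among all tested probes, Tgfbi was rank 13 by the lowest fold change and rank 21 by p. Its group-alone call was not kept in 8 of the 9 fits that left out an array or a pair. There the adjusted p ran between 0.0582 and 0.623, and the fold change over all 9 fits ranged from -4.38 to -3.52. It was also not kept with median centring (adjusted p = 0.119), scaling between arrays (0.590) or Cy5 alone (0.0562) in limma. With the block it passed without each pair in turn.

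The promoter of Tgfbi is shown because it is the member with the widest difference, beside those of Pi16 and Fbln1, which moved in opposite directions. Each line gives 250 bases upstream of the RefSeq transcription start on the gene's strand, from build GRCm38.p6, at chr13:56609336-56609585 (+) for Tgfbi, chr17:29318632-29318881 (+) for Pi16 and chr15:85205699-85205948 (+) for the first of the Fbln1 starts. Capitals mark matches to the motifs searched on both strands, which were the TATA box (TATAAA), the CCAAT box (the letters CCAAT), the Sp1 box (GGGCGG) and the AP-1 site (TGANTCA).
Tgfbi: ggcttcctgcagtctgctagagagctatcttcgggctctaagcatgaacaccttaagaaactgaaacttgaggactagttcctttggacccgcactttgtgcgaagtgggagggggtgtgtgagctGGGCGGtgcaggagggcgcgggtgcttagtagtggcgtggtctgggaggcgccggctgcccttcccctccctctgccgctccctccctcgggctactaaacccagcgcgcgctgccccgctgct
Pi16: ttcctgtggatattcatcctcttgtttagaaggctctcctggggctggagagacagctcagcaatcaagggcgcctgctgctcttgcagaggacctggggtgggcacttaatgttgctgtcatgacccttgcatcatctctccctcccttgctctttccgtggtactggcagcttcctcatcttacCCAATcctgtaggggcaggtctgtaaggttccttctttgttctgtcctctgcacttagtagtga
Fbln1: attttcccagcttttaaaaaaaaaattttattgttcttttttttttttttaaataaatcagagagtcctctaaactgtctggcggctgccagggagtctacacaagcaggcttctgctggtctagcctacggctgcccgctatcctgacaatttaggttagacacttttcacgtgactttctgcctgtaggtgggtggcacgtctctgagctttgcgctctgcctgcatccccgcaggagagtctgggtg

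Tgfbi held GGGCGG 124 bases upstream of its start, in a window with 62.4% G and C. Pi16 held CCAAT 64 bases upstream (52.4% G and C). The first Fbln1 start held none of the 4 motifs in these letters (46.4% G and C). The second start, which lies downstream of the first, held GGGCGG on the opposite strand 11 bases upstream, in a window with 62.4% G and C. Over 32851 windows of the same length, GGGCGG was found in 32.7%, CCAAT in 33.8%, TATAAA in 12.4% and TGANTCA in 6.75%, so the matches are of common kinds. Of the 10 members, 8 had a window in the table and Dcn and Lum did not. The windows of Bgn, Fmod, Ogn, Aspn and Prelp and of the second Fbln1 start are not printed.

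Among the class I proteoglycans, Dcn alone was called, and only with the block, while Aspn and Bgn passed in neither fit of the main processing. Dcn encodes decorin, which coats collagen fibrils and binds TGF-beta and several receptor tyrosine kinases. Dcn had log2 ratios of -0.63, -0.02 and -0.76 in Lgr5-positive cells and 0.46, 1.40 and 0.85 in Lgr5-negative cells. All Lgr5-positive arrays were below all Lgr5-negative ones, with means of -0.47 ± 0.40 and 0.90 ± 0.47 (SD, n = 3 each). Dcn had a log2 fold change of -1.37 (SE 0.30, 95% interval -2.10 to -0.65), or 2.59-fold lower, with an adjusted p of 0.269 from limma with the group alone. With the replicate block Dcn fell (SE 0.13, adjusted p = 0.0022). The differences within pairs 1, 2 and 3 were -1.10, -1.42 and -1.61, which varied less than the arrays of either group. Cy5 intensity was 2329, 7192.5 and 3125 in Lgr5-positive cells and 9651, 34856.7 and 16838 in Lgr5-negative cells, while Cy3 averaged 11941 and 11396. Replicate 2 was the brightest for Dcn in both groups.

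Bgn encodes biglycan, the closest relative of decorin, which can also act as a ligand of Toll-like receptors when released from the matrix. Bgn had log2 ratios of 0.76, 0.48 and -0.29 in Lgr5-positive cells and 0.30, -0.18 and -0.48 in Lgr5-negative cells. The groups overlapped, although the Lgr5-positive array was the higher one in each pair, by 0.46, 0.66 and 0.19. The log2 fold change of 0.44 (SE 0.33, 95% interval -0.35 to 1.22) did not pass in limma's fit with the group alone (adjusted p = 1.00). It did not pass with the block either (SE 0.13, adjusted p = 0.131). Before normalization the Cy5 intensities were 656, 829 and 525.5 in Lgr5-positive cells and 851, 1007 and 885 in Lgr5-negative cells. The Lgr5-positive spot was thus the dimmer one in each pair before normalization. With median centring of the arrays in place of loess the log2 fold change was 0.0069.

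Aspn encodes asporin, a class I member without the sulfated chains, which binds collagen and TGF-beta. The log2 ratios of Aspn were -1.10, -0.69 and -0.93 in Lgr5-positive cells and -0.64, -0.69 and -0.47 in Lgr5-negative cells. Replicates 1 and 3 were lower in Lgr5-positive cells by 0.46 each, and replicate 2 differed by 0.01. The log2 fold change of -0.30 (95% interval -0.71 to 0.10) passed in neither fit, with an adjusted p of 0.315 from limma with the block. With median centring of the arrays in place of loess it was -0.46 and passed with the block (adjusted p = 0.0363 in limma). In that setting 25.1% of all probes passed. Aspn was close to background, with Cy5 intensities of 115.5, 188 and 226 in Lgr5-positive cells and 252, 283 and 377 in Lgr5-negative cells, over local backgrounds of 59 to 132.

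Among the class II proteoglycans, Lum encodes lumican, which carries keratan sulfate in the cornea and regulates collagen fibril assembly. Its log2 ratios were 1.47, 2.25 and 1.09 in Lgr5-positive cells and 2.70, 2.71 and 1.94 in Lgr5-negative cells. The groups overlapped through replicate 2 of the Lgr5-positive arrays and replicate 3 of the Lgr5-negative arrays. The log2 fold change was -0.84 (SE 0.35, 95% interval -1.69 to 0.0028, adjusted p = 0.938) in limma's fit with the group alone. With the block Lum fell (SE 0.16, adjusted p = 0.0287), with differences of -1.22, -0.46 and -0.85 in the 3 pairs. Without replicate pair 1 the blocked fold change was -0.65 and the adjusted p from limma 0.0622.

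Fmod encodes fibromodulin, which competes with lumican for a site on collagen. In Fmod the log2 ratios were 0.46, 0.13 and -0.12 in Lgr5-positive cells and -0.18, 0.38 and 0.23 in Lgr5-negative cells. The pairs pointed in different directions, with 0.63, -0.26 and -0.34. The mean difference of 0.01 had a 95% interval of -0.44 to 0.47 with the block and -0.53 to 0.55 with the group alone. Changes within these intervals remain possible with 3 arrays per group. The intervals are not adjusted for the number of probes, so they do not mark the smallest change that would be called.

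Ogn, the class III member, encodes osteoglycin, also called mimecan, of bone and vessel walls. Ogn had log2 ratios of -2.46, -2.31 and -2.48 in Lgr5-positive cells and -2.54, -2.62 and -2.60 in Lgr5-negative cells. The groups did not overlap, but the step between them was small, with means of -2.42 ± 0.09 and -2.59 ± 0.04 (SD, n = 3 each). The log2 fold change of 0.17 (95% interval -0.10 to 0.44 with the block) did not pass in limma's fit (adjusted p = 0.523). Its sign turned to -0.29 when arrays were centred on their median in place of loess and to -1.01 when ratios were scaled between arrays. Before normalization the Cy5 intensities of Ogn were 335.5, 640 and 480 in Lgr5-positive cells. They were 511.5, 844.5 and 796 in Lgr5-negative cells, so the Lgr5-positive spot was the dimmer one in each pair.

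Fbln1 encodes fibulin-1, a secreted protein of elastic fibres and basement membranes that also binds fibronectin. Both probes are assigned to the same transcript. The brighter, probe 1, had log2 ratios of 1.83, 1.93 and 1.37 in Lgr5-positive cells and 1.27, 1.12 and -0.22 in Lgr5-negative cells. All Lgr5-positive arrays were above all Lgr5-negative ones, and replicate 3 of the Lgr5-negative arrays was well below the others of its group. The log2 fold change was 0.99 (SE 0.41, 95% interval 0.0011 to 1.97, adjusted p = 0.933) in limma's fit with the group alone, or 1.98-fold higher. With the block Fbln1 rose on this probe (SE 0.19, adjusted p = 0.0344), with differences of 0.55, 0.82 and 1.59 in the 3 pairs. Before normalization the Cy5 intensities were 1499, 2982.5 and 1863 in Lgr5-positive cells and 1916, 2879 and 1155 in Lgr5-negative cells, so in pair 1 the Lgr5-positive spot was dimmer before normalization. The blocked call was not kept without pair 2 (log2 fold change 1.07, adjusted p = 0.111 in limma).

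The dimmer Fbln1 probe, probe 2, had log2 ratios of -0.13, 0.32 and -0.31 in Lgr5-positive cells and -0.49, 0.01 and -0.80 in Lgr5-negative cells. It was higher in the Lgr5-positive array of each pair, by 0.35, 0.31 and 0.49, while the groups overlapped. Its log2 fold change of 0.39 (SE 0.11 with the block, 95% interval 0.12 to 0.65) did not pass in limma's blocked fit (adjusted p = 0.127). Before normalization the Cy5 intensities of probe 2 were 207.5, 333 and 219 in Lgr5-positive cells and 252, 401 and 282.5 in Lgr5-negative cells, dimmer in the Lgr5-positive array of each pair. After normalization the 2 probes thus had the same sign and differed in size.

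Pi16 encodes peptidase inhibitor 16, a member of the CAP protein family that marks a subset of fibroblasts in mouse tissues. Pi16 had log2 ratios of 0.75, 1.32 and 1.02 in Lgr5-positive cells and 2.90, 2.08 and 1.90 in Lgr5-negative cells. The groups did not overlap, with means of 1.03 ± 0.28 and 2.29 ± 0.53 (SD, n = 3 each). The log2 fold change was -1.26 (SE 0.30, 95% interval -1.98 to -0.55), or 2.40-fold lower, with an adjusted p of 0.323 from limma with the group alone. With the block Pi16 fell (SE 0.25, adjusted p = 0.0367). Pair 1 had a difference of -2.15, wider than the -0.77 and -0.87 of the other pairs, and without it the blocked fold change was -0.82 (adjusted p = 0.0159 in limma). Without pair 2 it was -1.51 and the adjusted p 0.0562. Cy5 intensity was 333, 600 and 508.5 in Lgr5-positive cells and 1624, 1440.5 and 1431 in Lgr5-negative cells.

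**Figure D2:**
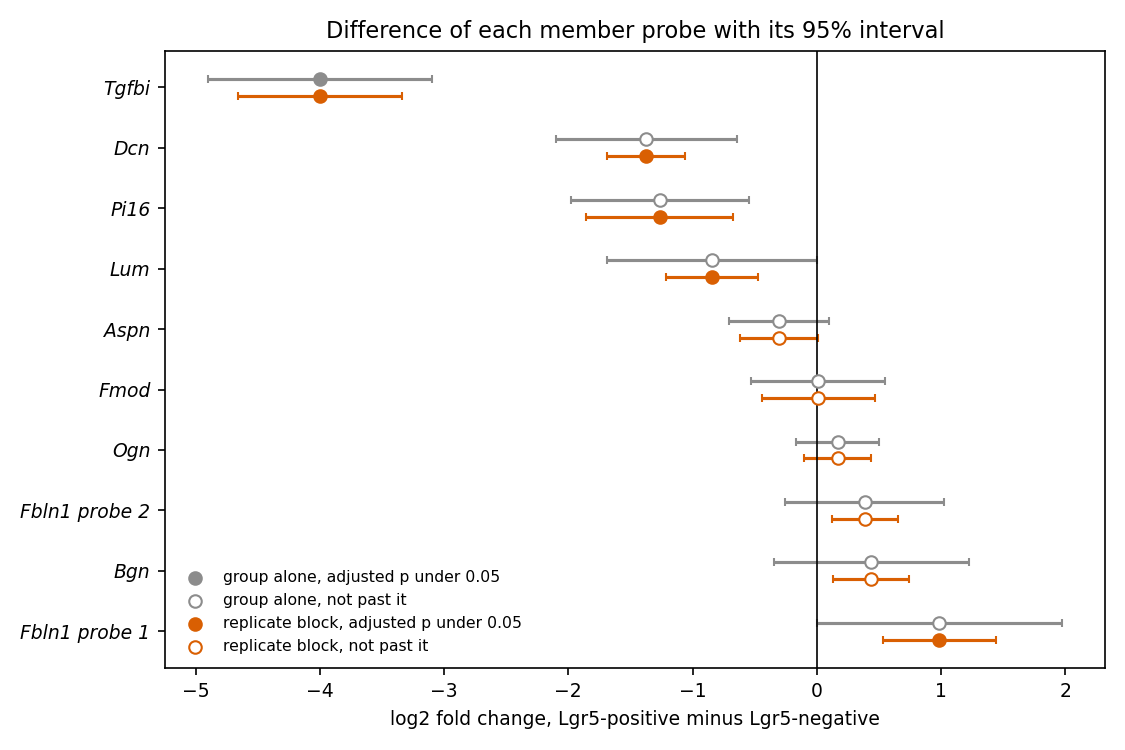
Log2 fold change (Lgr5-positive minus Lgr5-negative, x axis) of each member probe with its 95% interval, ordered by size. Grey is the fit on group alone and orange the fit with the replicate block, and filled points passed an adjusted p of 0.05; Tgfbi at -4.00 passed in both, and Dcn, Pi16, Lum and Fbln1 probe 1 with the block.

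Several members lie next to each other in the genome, which allowed neighbours to be read side by side. Dcn and Lum are neighbours on chromosome 10, beside Kera and Epyc, which were not tested because too few arrays were above background. Dcn and Lum both fell with the block. Btg1, on the other side of Dcn and encoding an antiproliferative factor, also fell with the block (log2 fold change -0.67, adjusted p = 0.0394 in limma). On chromosome 13, Ecm2 (-0.71), Aspn (-0.30) and Ogn (0.17) stand in a row, with Omd between the last 2 not tested, and of these Ecm2 alone passed in the blocked fit. On chromosome 1, Optc (0.22) and Fmod (0.01) flank Prelp, and neither passed. The nearest tested neighbours of Tgfbi, Lect2 (0.13) and Smad5 (-0.18), did not pass in either fit, nor did Mtch1 beside Pi16 (-0.11), Haus7 beside Bgn (0.03) or Atxn10 beside Fbln1 (0.04).

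Over the 6 arrays the log2 ratios of Dcn and Tgfbi ran closest to each other among the members (Pearson r = 0.934), followed by Lum and Pi16 (0.819) and by Dcn and Lum (0.807). Bgn and Fbln1 had r = 0.791. Ogn and Tgfbi lay farthest apart (-0.795), followed by Fbln1 and Tgfbi (-0.770). These values describe 6 arrays that share a slide, a reference and the group difference, and they carry no test. Of 15681 other genes, the one most like Tgfbi was Abhd17c (r = 0.999), followed by Bst1 and Enpp2 (both 0.998), whose log2 fold changes were -1.70, -4.51 and -4.50. The genes most like the others were Crip3 for Dcn (0.998), 1600014C10Rik for Lum (0.990) and Nr1h3 for Pi16 (0.992). They were Ldb3 for Bgn (0.999), Glmn for Fbln1 (0.996), Frat1 for Aspn (0.996), Grin2a for Fmod (0.992) and Tnfrsf12a for Ogn (0.984). Of the 15681 genes, 290 had r over 0.95 with Tgfbi and 6 with Fmod. The named genes were picked as the highest of so many over 6 arrays, so that choice itself favours high values.

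Related matrix genes were read from 7 lists of 106 genes, of which 97 were tested. None passed in the fit with the group alone, where 0.185% of all genes did (29 of 15682 by their brightest probe), while 20 had an unadjusted p under 0.05 in limma, against 1353 of all genes. In the blocked fit 13 were lower in Lgr5-positive cells and 8 were higher, against 5.53% lower and 2.00% higher over all genes. The median log2 fold change of all genes was 0.01.

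Of the other small leucine-rich proteoglycans, 6 of 10 were tested, with a median of -0.02. Ecm2, which encodes a matrix protein with leucine-rich repeats, was the only one to pass with the block. The log2 ratios of Ecm2 averaged 0.27 ± 0.33 in Lgr5-positive cells and 0.97 ± 0.47 in Lgr5-negative cells. Its log2 fold change was -0.71 (adjusted p = 0.0263 with the block and 0.909 with the group alone in limma). Podnl1, which had the next lowest p with the group alone, had a log2 fold change of 0.13 and did not pass in either fit. Here "at background" means that the scanner software did not mark the Cy5 signal as well above it. Epyc was at background on all 6 arrays, and Omd was at background in Lgr5-positive cells.

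Among the other fibulins and elastic fibre proteins, all 21 were tested, with a median of 0.11. With the block 3 rose and 1 fell. The microfibril protein gene Mfap2 rose (log2 fold change 1.28, SE 0.14, limma adjusted p = 0.0036), with log2 ratios of 3.72, 3.46 and 2.82 in Lgr5-positive cells and 2.42, 2.49 and 1.23 in Lgr5-negative cells. Ltbp3, which anchors latent TGF-beta, rose by 0.81 and Efemp2, the gene of fibulin-4, by 0.64. Fbln5, another fibulin needed for elastic fibre assembly, fell by 1.09 on the log2 scale (limma adjusted p = 0.0050 with the block), with means of 0.03 ± 0.65 in Lgr5-positive cells and 1.12 ± 0.62 in Lgr5-negative cells. Among the fibulins called with the block, Fbln1 probe 1 and Efemp2 were higher and Fbln5 was lower. With median centring Fbln5 kept its call. Efemp2 (0.23, adjusted p = 0.180 in limma with the block) and Fbln1 probe 1 (0.50, adjusted p = 0.057) did not. Fbln2, Fbln7 and Efemp1 passed in neither fit.

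Of the other matrix proteoglycans, 17 of 20 were tested, with a median of 0.15, and 1 fell and 1 rose with the block. Srgn, the intracellular proteoglycan of secretory granules known from blood and endothelial cells, fell by 2.38 on the log2 scale (limma adjusted p = 0.0028 with the block). The syndecan gene Sdc2 rose by 0.60. With median centring of the arrays Sdc2 was at 0.14 and did not pass (adjusted p = 0.428 in limma with the block). All 24 genes for chondroitin, dermatan and keratan sulfate synthesis were tested, with a median of -0.01. The sulfotransferase genes Chst7 (-2.05, SE 0.19) and Chst1 (-1.15) and the linker enzyme gene B4galt7 (-0.52) fell with the block, and the chain polymerizing factor gene Chpf (0.78) rose. Chpf did not pass with median centring (0.34, adjusted p = 0.0915 in limma with the block). Chst7 had log2 ratios of 0.20, 1.20 and -0.09 in Lgr5-positive cells and 2.30, 2.72 and 2.45 in Lgr5-negative cells, with no overlap.

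Of the growth factors and receptors that bind these proteoglycans, 16 of 18 were tested, with a median of 0.18. Tgfbr2, the TGF-beta type II receptor gene, fell with the block (log2 fold change -0.87, limma adjusted p = 0.0147). Tgfb1 had -0.43 and did not pass in either fit. All 10 matrix proteases and their partners were tested, with a median of 0.04, and 4 fell and 2 rose with the block. The genes that fell were Mmp3 (-1.09), Htra1 (-0.91), Adamts4 (-1.38) and Pcolce (-0.83), the last a helper of procollagen cleavage. Those that rose were Mmp2 (0.73) and Bmp1 (0.66), a protease that matures procollagen and several small leucine-rich proteoglycans. With median centring of the arrays both were at 0.25 and did not pass (adjusted p = 0.181 and 0.193 in limma with the block).

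The 3 other genes with fasciclin domains were all called with the block, in both directions. Stab1 and Stab2 encode scavenger receptors known from macrophages and from sinusoidal and lymphatic endothelium. They fell by 2.75 and 1.99 on the log2 scale, with adjusted p of 8.6e-04 and 0.0419 from limma. Postn encodes periostin, the secreted protein closest to Tgfbi, and rose by 0.96. Its log2 ratios were 6.31, 6.59 and 7.31 in Lgr5-positive cells and 5.51, 5.97 and 5.87 in Lgr5-negative cells. Tgfbi and Postn therefore moved in opposite directions in the same 6 arrays.

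**Figure D3:**
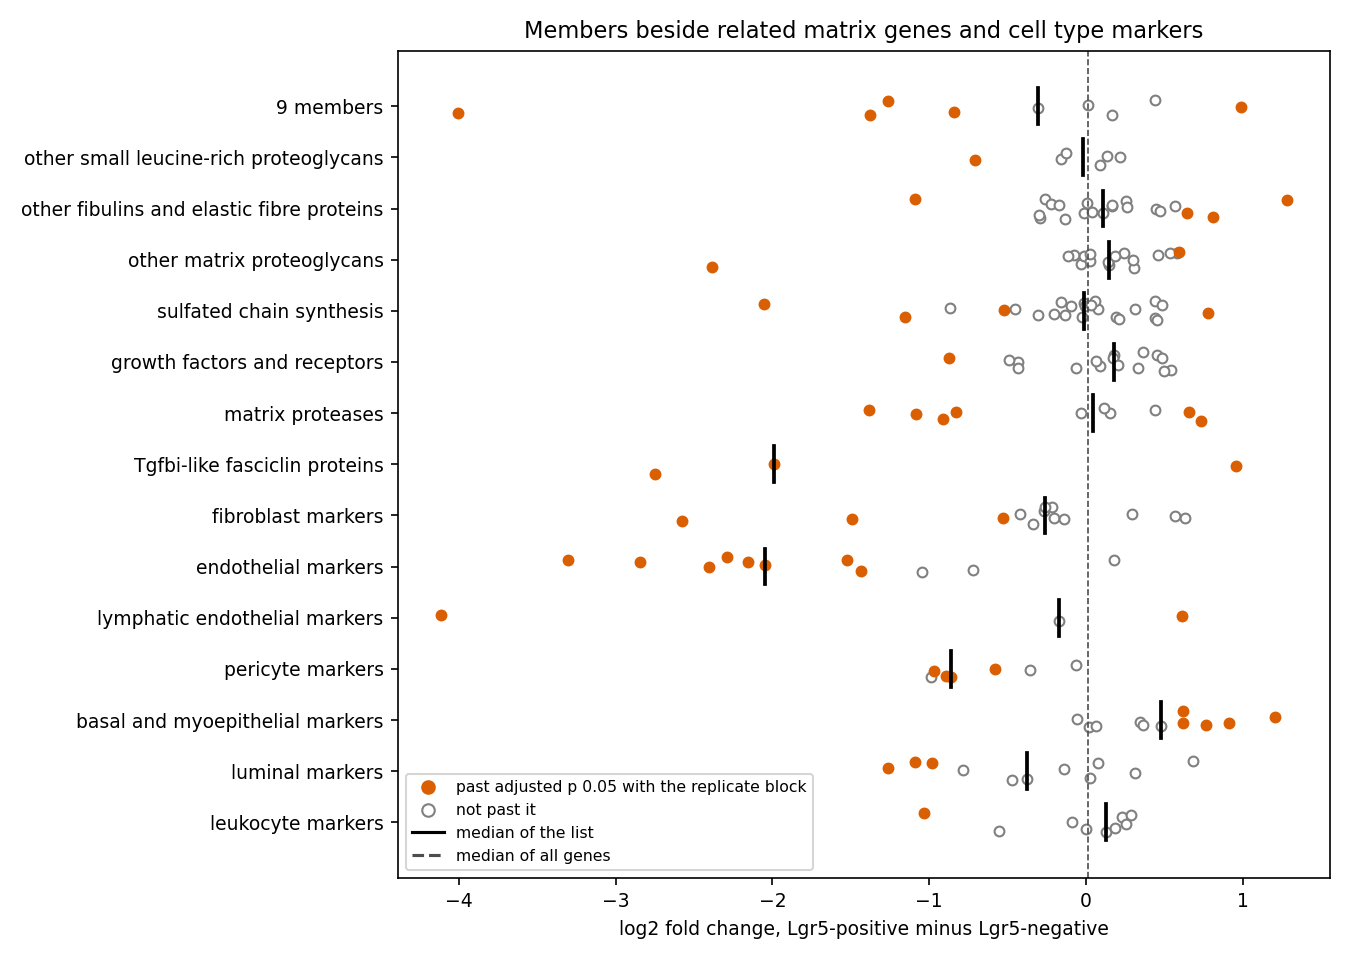
Log2 fold change (Lgr5-positive minus Lgr5-negative, x axis) of each tested gene in the member set, the 7 related lists and 7 lists of cell type markers, by its brightest probe. Filled orange points passed an adjusted p of 0.05 with the replicate block, short black lines are list medians and the dashed line is the median of all genes (0.01); the members spread from -4.00 to 0.99, and the endothelial markers have a median of -2.04.

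Markers of other cell types also differed between the groups, and their part in the values of the members was not tested. Over all genes 5.53% fell and 2.00% rose with the block. Of the fibroblast markers, 13 of 14 were tested. The fibroblast list median of the log2 ratio ran over -1.71 to -1.35 on the Lgr5-positive arrays and over -1.15 to -0.93 on the Lgr5-negative arrays. With the block 3 fell, Cd34 (-2.58), Fap (-1.49) and Col3a1 (-0.53), and 0 rose. The log2 fold change was below 0 for 10 of the 13 and above 0 for 3. Col3a1 did not keep its call from the software's log ratio (adjusted p = 0.163 in limma with the block) or from Cy5 alone (0.206). With scaling 0 of the 3 calls were kept. Cd34 is also expressed by endothelium. Pdgfra, a defining fibroblast receptor gene, had log2 ratios of -3.45 ± 0.05 in Lgr5-positive cells and -3.11 ± 0.38 in Lgr5-negative cells (SD, n = 3 each) and did not pass (adjusted p = 0.309 in limma with the block). Col1a1 had a log2 fold change of -0.20 and did not pass. Dpt was at background in Lgr5-positive cells.

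The endothelial list medians lay at 1.26 to 2.63 on the Lgr5-positive arrays and at 4.20 to 4.80 on the Lgr5-negative arrays. Of its 11 genes 8 fell with the block (Egfl7, Cdh5, Plvap, Cldn5, Emcn, Vwf, Esam and Tie1), against 5.53% of all genes. The list had a median log2 fold change of -2.04. Tie1 was at background in Lgr5-positive cells and met the filter through the Lgr5-negative arrays only, so that filter partly set its call. Of the 8 calls 3 were kept from the software's log ratio, 8 with median centring, 8 from Cy5 alone and 0 with scaling. Lyve1, a marker of lymphatic endothelium that some macrophages share, fell by 4.12 on the log2 scale with the block, while Pdpn rose by 0.61 (list medians of 0.29 to 0.98 in Lgr5-positive cells and 0.13 to 0.55 in Lgr5-negative cells) and Prox1 was at background in Lgr5-positive cells. Of the 7 pericyte markers tested, 4 fell, and the list median ran over -0.28 to 0.40 in Lgr5-positive cells and over 0.26 to 0.69 in Lgr5-negative cells. The sign of Rgs5 (-0.58), one of those 4, and of the endothelial Esam (-1.53) turned with scaling between arrays (0.27 and 0.37). Kcnj8 was at background in Lgr5-positive cells. Of 9 leukocyte markers tested, Cd74 alone was called with the block, and it fell (-1.04). The log2 fold change was above 0 for 6 of the 9 and below 0 for 3, with a median of 0.13. List medians of the log2 ratio were -0.66 to 0.02 in Lgr5-positive cells and -0.69 to 0.33 in Lgr5-negative cells. Lyz2 was at background on all 6 arrays.

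The basal and myoepithelial markers, by which the gate was checked, were each well above background on an array or more of each group. Their list median ran over 3.76 to 4.75 in Lgr5-positive cells and over 3.63 to 4.19 in Lgr5-negative cells. With the block 5 of 11 rose, Cdh3 (1.20), Sox10 (0.91), Oxtr (0.76), Cnn1 (0.62) and Krt17 (0.62). Of these calls 2 were kept with median centring and 2 from Cy5 alone (Cdh3 and Sox10 each time), and 0 from the software's log ratio or with scaling. Krt14 (0.48) and Krt5 (0.36) did not pass. Of the 11 luminal markers 3 fell with the block (Esr1, Foxa1 and Cited1), and the list median was 0.62 to 0.90 in Lgr5-positive cells against 1.00 to 1.11 in Lgr5-negative cells.

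The member values were set against 10 other ways of processing the same arrays, each with the replicate block. Tgfbi and Dcn kept their calls in 9 of them, and lost both when ratios were scaled between arrays (-3.55 and -1.43, adjusted p = 0.257 each in limma). With scaling 0% of all tested probes passed in the blocked fit, so calls lost there are not particular to the members. Lum, Pi16 and Fbln1 probe 1 passed in neither the software's own log ratio nor the authors' deposited table of log2 values, where Lum was at -0.82, Pi16 at -1.20 and Fbln1 at 1.04. Fbln1 probe 1 also missed the threshold with median centring (0.50, adjusted p = 0.057 in limma) and with Cy5 alone (0.92, adjusted p = 0.0564), and Fbln1 probe 1, Pi16 and Lum all missed it with scaling (1.64, -0.44 and 0.036). Fbln1 probe 1 thus lost its call in 5 of the 10. Fmod lay between -0.30 and 0.12 over all of them.

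**Figure D4:**
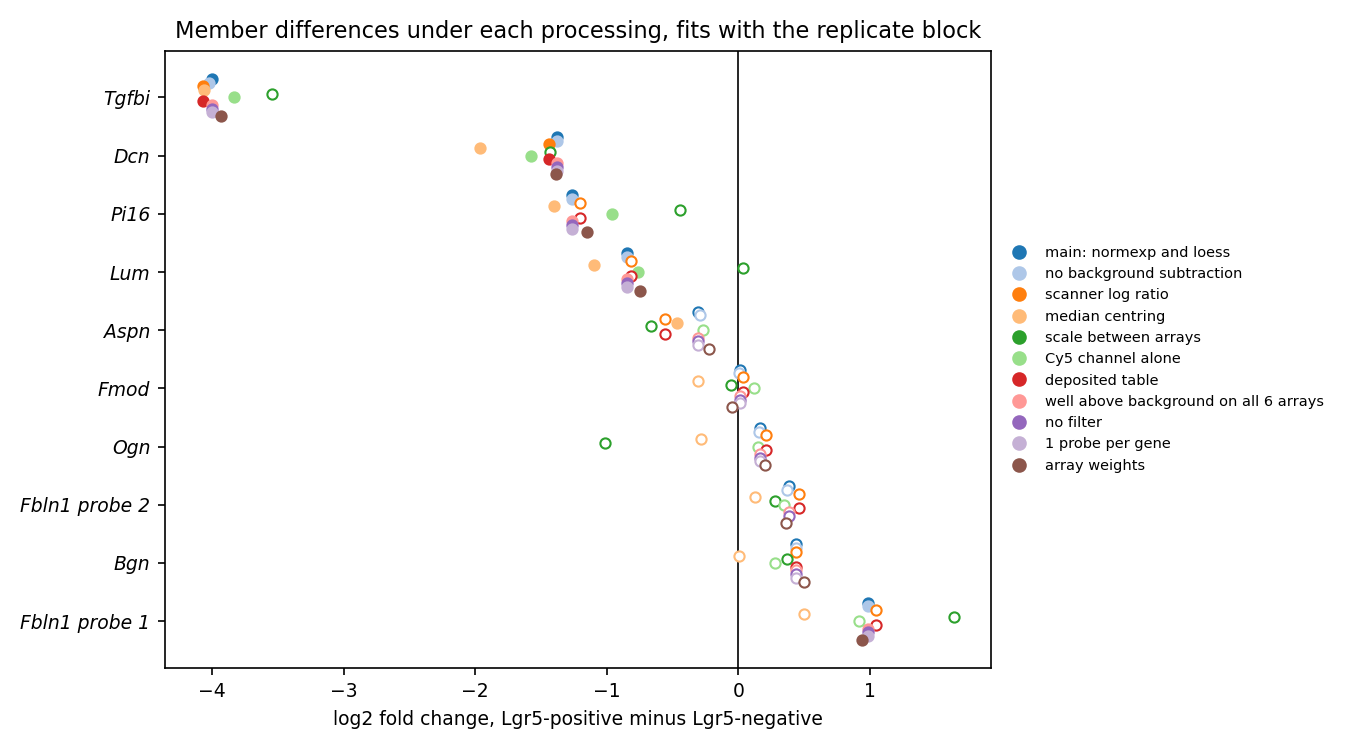
Log2 fold change (Lgr5-positive minus Lgr5-negative, x axis) of each member probe under the processing used here and 10 others, in fits with the replicate block. Colours mark the processing and filled points passed an adjusted p of 0.05; Tgfbi stays between -4.07 and -3.55, and Lum, Ogn and Fmod lie on both sides of 0.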

How the data were processed

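The 10 genes and all gene lists were chosen with earlier results of these data known. The authors deposited 1 scanner file per array with the median intensity of each spot and its local background in both channels and a log10 ratio of Cy5 over Cy3, per the file headers (Feature Extraction 11.0.1.1; 11.0 per the submitters' processing notes). The deposited series table holds log2 ratios, of which 81.6% to 83.2% lie within 0.001 of the software's ratio centred per probe. It runs in the same direction as the scanner values (correlation 0.920 to 0.950), with column medians of -0.0016, 0.03 and 0.02 on the Lgr5-positive arrays and 0.0064, -0.02 and -0.05 on the Lgr5-negative arrays. Why the rest of its values differ is unknown. Dyes were not swapped, and all arrays share a slide and a scan.

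Median spot intensities were corrected with normexp (offset 50), normalized by loess within arrays and averaged per probe in limma 3.58.1 (R 4.3.3). Mean spot signals were not used here. Control spots and spots flagged as outliers were left out. A probe was tested where 3 or more of the 6 arrays had Cy5 marked as well above background (34552 kept, 34528 tested, since the rest lost a spot to an outlier flag). Probes were named through RefSeq transcripts with a GRCm38.p6 table, used for names and neighbours because the arrays are annotated on mm9; 27509 probes received 1 of 20887 symbols, and 20504 of 20847 NM accessions matched. For lists, the brightest kept probe stands for a gene.

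The comparison is limma's lmFit and eBayes with the group alone (two-sided, Benjamini-Hochberg adjusted, threshold 0.05), and a second fit that adds the replicate number as a blocking factor. Deviations from the group means correlated at 0.804, 0.853 and 0.717 between arrays with the same number and at -0.66 to -0.22 otherwise, so by the criterion of 0.1 in every pair, set before the calls were compared, the numbers pair the arrays. Paired arrays were slide neighbours, Lgr5-positive always first, so within pairs position on the slide cannot be told apart from group. Genes were named by rule: every member, from each related list up to 4 genes past the threshold or else the 2 with the lowest p, in either fit, and the gene most correlated with each member. Marker genes, genome neighbours, Bmp1, Bst1 and Enpp2 were named after their values were seen. The fits were tested on simulated data. The number of arrays limits the precision.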

Additional observations from a re-analysis of the deposited data

How the results depend on the processing

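With the group alone, 35 probes of the array passed. Other processing gave 2 with median centring, 0 with scaling between arrays, 13 from Cy5 alone, 15 with the filter on all 6 arrays, 96 with 1 probe per gene, 96 with array weights and 0 to 262 without an array or a pair (262 without Lgr5-negative replicate 1). With the replicate block it was 1522, and with the block 520 from the scanner log ratio, 8661 with median centring, 1397 with the filter on all 6 arrays, and 1849, 632 and 1226 without pair 1, 2 and 3. Of the member probes 1 passed with the group alone, against 0 with median centring, scaling or Cy5 alone and 0 to 1 in the leave-one-out fits. With the block 5 passed, against 2 from the scanner log ratio, 2 from the deposited table, 5 with median centring (Aspn in place of Fbln1 probe 1), 5 with the all-array filter, 0 with scaling, and 4, 3 and 5 without pair 1, 2 and 3.

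Signs turned for Fmod (-0.30) and Ogn (-0.29) with median centring, for Lum (0.036), Fmod (-0.055) and Ogn (-1.01) with scaling, and for Fmod with array weights (-0.11, or -0.051 with the block) and without an array or a pair (-0.30 to 0.19). The cause was not tested. Median centring moved the median of all probes from 0.03 to -0.21 and the share of blocked calls that were lower from 72.1% to 97.8%. Of the 21 list genes called with the block, 0 changed sign under the scanner ratio, median centring, scaling or Cy5 alone, and 4, 16, 0 and 20 of them kept their call. The list genes that lost it with median centring had all been called higher (Efemp2, Sdc2, Chpf, Mmp2 and Bmp1). Every list gene called lower kept its call with median centring. Of the 26 called marker genes, 2 changed sign under scaling (Esam and Rgs5), and 7, 22, 0 and 20 kept their call. Against the group-alone fit, member fold changes kept direction and call in 214 cases, lost the call in 11, gained it in 22 and turned sign in 12. These cases include fits with the replicate block, and all 22 gained calls came from those. No other processing of the group-alone fit gained a member call. Against the blocked fit these numbers were 106, 15, 1 and 7. The blocked alternatives with scaling, Cy5 alone, the deposited table, no background subtraction, no filter, 1 probe per gene and array weights were added after seeing the data. Signal over background limits Aspn, at Cy5 intensities of 115.5 to 377 over backgrounds of 59 to 132.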
